A study of Homo sapiens with 9 samples.

Results

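The genes described here encode the mitochondrial ribosomal proteins, taken by their symbols: every measured gene named MRPL or MRPS followed by a number and, for some, a letter. There were 75 such genes among 19775 measured, 48 named for the large subunit (MRPL) and 27 for the small subunit (MRPS). They were measured in U2OS, a human osteosarcoma cell line, on Affymetrix expression arrays, with 3 arrays for each of 3 groups. The groups were cells that carried the shRNA plasmid shBAP1 #1, cells that carried shBAP1 #2, and cells that carried the non-targeting plasmid shControl. Cells of all 3 groups were transfected with Lipofectamine 2000, selected in puromycin and held at the boundary of G1 and S phase by a double thymidine block, so every value below comes from selected, arrested cells. The labels do not say whether the 3 replicates of a group were separate cultures. The p-values therefore measure the spread between these arrays, which may be technical.

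Mitochondria carry their own ribosome, which translates the few messages encoded by mitochondrial DNA, all of them for membrane subunits of the respiratory chain and of ATP synthase. Its proteins are encoded in the nucleus, made in the cytosol and imported, and they assemble with RNAs made inside the mitochondrion. Many descend from bacterial ribosomal proteins and keep their numbers. Others were gained in the mitochondrial lineage and cover the membrane side, the central protuberance and the head. BAP1 is a nuclear deubiquitinase that removes ubiquitin from histone H2A and is found in complexes with the transcription regulators HCF-1 and YY1.

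Values are log2 expression after robust multi-array averaging, so a difference of 1 is a doubling and differences between groups are log2 changes. All 75 genes were expressed above the median probe set, which lay at 5.44. The large subunit genes had a median level of 10.32 (8.09 to 12.65), the small subunit genes 10.38 (9.17 to 12.42), and all measured genes 6.57. MRPL51, MRPL3 and MRPS15 had the brightest probe sets. MRPL44, MRPL55 and MRPL2 had the dimmest. Probe sets bind with different strength, so these levels do not rank the genes by abundance. The transcript targeted by the shRNAs was not analysed here, so the group labels were not checked by it.

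Arrays of the same group correlated at 0.995 to 0.997 over all probe sets and arrays of different groups at 0.977 to 0.990. The U2OS label was checked against its markers. The mesenchymal genes VIM and SPARC averaged 14.07 and 12.74 and the osteoblast regulator RUNX2 averaged 7.20, while COL1A2 (4.53) and ALPL (4.86) lay below the median probe set. The blood markers PTPRC (3.95) and CD3E (4.73) lay below that median and HBB (5.86) above it. The endothelial marker CDH5 lay below it at 4.05 and PECAM1 above it at 7.26, while the liver gene ALB (3.89) and the muscle gene MYOG (4.77) lay below. The epithelial markers were mixed, with KRT18 at 12.55, KRT8 at 8.82 and EPCAM at 6.17 above the median and CDH1 at 5.0 below it. Over the 75 genes, shBAP1 #2 replicate 1 stood nearer to the controls, with a mean correlation to them of 0.899, against 0.790 and 0.808 for the other shBAP1 #2 arrays. This was not particular to these genes: over all probe sets the values were 0.9887, against 0.9815 and 0.9812. The 3′ minus 5′ difference of the actin control probe sets, a sign of RNA quality, was 0.47 to 0.51 on the shControl arrays. It was 0.46 on shBAP1 #2 replicate 1 and 0.39 to 0.41 on the other shBAP1 arrays. Its part in the place of that replicate and in the changes below was not tested.

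The mitochondrial ribosomal protein genes did not move as a block with either shRNA. With shBAP1 #1, 4 of the 75 rose and 17 fell relative to shControl (limma, Benjamini-Hochberg adjusted p below 0.05 over all genes), which is 5.33% and 22.7% of them. Over all 19775 genes, 13.0% were higher and 12.6% lower in that comparison. The median change of the 75 genes was -0.07, against 0.01 for all genes, and single genes ranged between -1.58 and 0.89. These genes are brighter than most, and bright genes were called more often. Among the 6033 genes at or above the level of the dimmest of the 75, 22.9% were higher and 23.7% lower with shBAP1 #1, so the share that fell lay near that of other bright genes and the share that rose lay below it.

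With shBAP1 #2, 15 of the 75 genes rose and 27 fell, or 20.0% and 36.0%. Over all genes 16.9% were higher and 16.5% lower, and among the 6033 bright genes 29.8% were higher and 28.5% lower. The median change was -0.04 and the mean -0.17, because the falls ran further than the rises: the range was -1.92 to 1.40. At a change of at least 1.5-fold, 3 genes rose and 12 fell with shBAP1 #2, where 5.61% of all genes were higher and 7.93% lower by that rule. Of the 6033 bright genes, 579 were higher and 846 lower by it. With shBAP1 #1 the same rule left 1 higher and 3 lower, against 4.39% and 4.85% of all genes. It left 419 higher and 552 lower of the 6033 bright genes. In bulk RNA, fewer cells of a kind and less RNA per cell cannot be told apart.

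**Figure D1:**
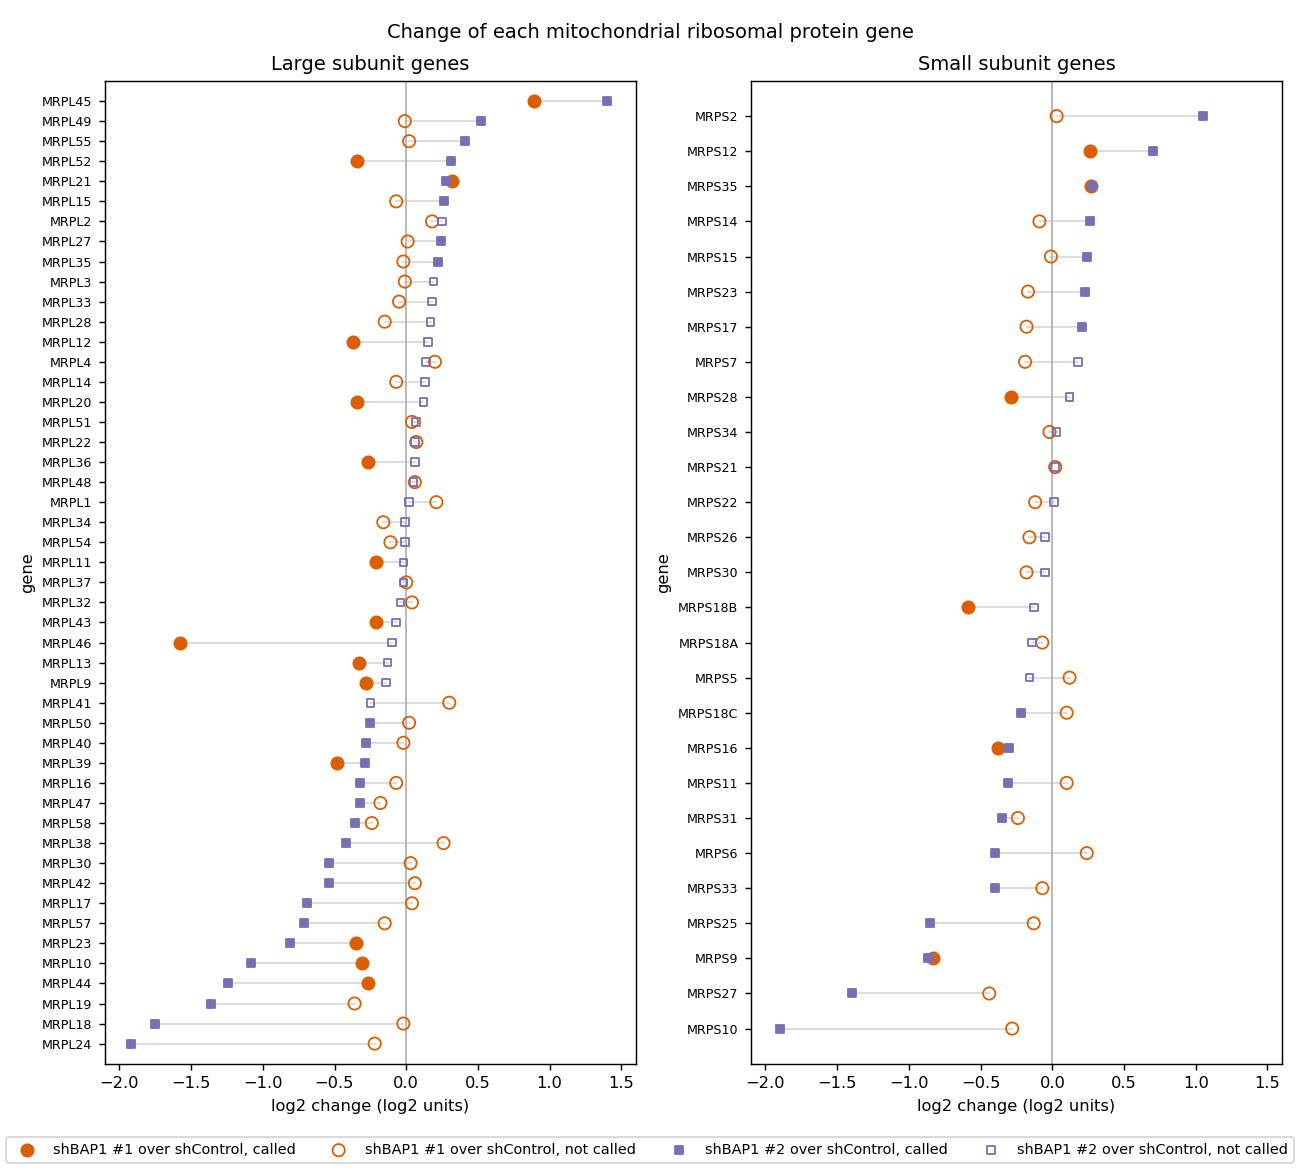
Log2 change of each of the 48 large subunit genes (left) and 27 small subunit genes (right) with shBAP1 #1 (circles) and shBAP1 #2 (squares) over shControl, ordered by the change with shBAP1 #2; filled symbols passed an adjusted p of 0.05 and open symbols did not. Most genes lie close to 0 with shBAP1 #1, and the tail of lower genes with shBAP1 #2 reaches MRPL24 at -1.92.

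Both comparisons share the 3 control arrays, so a gene called by both shRNAs is no independent repeat. Among the 75 genes, 4 rose with both, 6 fell with both and 1 moved in opposite directions, while 6.22% of all genes were higher with both, 5.49% lower with both and 3.44% opposite. Of the 6033 bright genes, 745 were higher with both, 587 lower with both and 406 opposite, so the members did not exceed other bright genes in any of these classes. A further 10 genes were called only in the comparison of shBAP1 #1, 31 only in that of shBAP1 #2, and 23 in neither. MRPL45, MRPL21, MRPS12 and MRPS35 were the 4 that rose. MRPL10, MRPL23, MRPL39, MRPL44, MRPS9 and MRPS16 were the 6 that fell. The count of 10 dropped to 4 when shControl replicate 1 was left out and to 6 when shControl replicate 2 was left out. MRPL45 and MRPS9 alone passed 1.5-fold with both shRNAs.

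MRPL45, which tethers the ribosome to the mitochondrial inner membrane, was the member that rose most. It had 9.44, 9.46 and 9.44 with shBAP1 #1 and 9.82, 10.07 and 9.97 with shBAP1 #2, against 8.52, 8.44 and 8.70 with shControl. All 6 shBAP1 arrays lay above all 3 control arrays. The change was 0.89 ± 0.09 with shBAP1 #1 (SE, adjusted p = 4.31e-05) and 1.40 ± 0.09 with shBAP1 #2 (adjusted p = 4.89e-06), and shBAP1 #2 exceeded shBAP1 #1 by 0.51 ± 0.09 (limma, adjusted p = 0.000889). The gene was read by 1 probe set, whose suffix marks probes that match more than 1 transcript.

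MRPL24, which lies at the tunnel exit, had 9.50, 8.35 and 8.28 with shBAP1 #2, against 10.66, 10.53 and 10.68 with shControl. Its change of -1.92 ± 0.26 (SE, limma adjusted p = 0.000237) was the largest fall of the 75, and shBAP1 #2 replicate 1 sat between the other 2 arrays of its group and the controls. With shBAP1 #1 it had 10.36, 10.31 and 10.55, overlapping the controls, and the 95% interval of that change ran from -0.79 to 0.35. The spread in that interval is shared with shBAP1 #2, whose SD was 0.68, against 0.12 with shBAP1 #1 and 0.08 with shControl. MRPL44, a protein related to RNase III, averaged 9.15 ± 0.04 with shBAP1 #1 and 8.18 ± 0.14 with shBAP1 #2, against 9.41 ± 0.05 with shControl (SD, n = 3 each). It fell by 0.27 with shBAP1 #1 (limma adjusted p = 0.028) and by 1.24 with shBAP1 #2 (adjusted p = 4.89e-06). Its smaller change was lost without either shBAP1 #1 replicate 1 or replicate 3, without any 1 of the 3 control arrays, and in the mean over both probe sets of the gene.

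MRPL23, a tunnel exit protein with a bacterial counterpart, averaged 9.57 ± 0.04 with shBAP1 #1 and 9.11 ± 0.26 with shBAP1 #2, against 9.92 ± 0.02 with shControl (SD, n = 3 each). Its fall of 0.35 with shBAP1 #1 passed narrowly (limma adjusted p = 0.0383) and was lost when any 1 array of shBAP1 #1 or shControl, or shBAP1 #2 replicate 2, was left out. Its fall of 0.81 with shBAP1 #2 (adjusted p = 0.000262) came from a probe set at 9.53, while a dim second set at 5.35 gave -0.05. MRPL39, a large subunit protein with no bacterial counterpart, had 9.72, 9.76 and 9.85 with shBAP1 #1 and 10.11, 9.87 and 9.92 with shBAP1 #2, against 10.31, 10.18 and 10.27 with shControl. Both groups lay wholly below the controls, by 0.48 (limma adjusted p = 0.00119) and 0.29 (adjusted p = 0.0154). A dim second probe set at 3.65 gave 0.01 and -0.04, and the call with shBAP1 #2 was lost without shControl replicate 1, shBAP1 #2 replicate 2 or shBAP1 #2 replicate 3.

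MRPL46, a component of the central protuberance, the crest of the large subunit, had 7.79, 8.08 and 8.36 with shBAP1 #1 and 9.59, 9.61 and 9.49 with shBAP1 #2, against 9.61, 9.59 and 9.77 with shControl. The shBAP1 #1 arrays lay apart from the other 6. The change was -1.58 ± 0.12 with shBAP1 #1 (SE, limma adjusted p = 1.67e-05), a fold of 0.335, and -0.10 ± 0.12 with shBAP1 #2 (adjusted p = 0.615, 95% interval -0.37 to 0.17). The direct comparison put shBAP1 #2 higher than shBAP1 #1 by 1.48 ± 0.12 (adjusted p = 1.1e-05).

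MRPL18, whose bacterial counterpart binds 5S ribosomal RNA, showed the reverse arrangement. It had 11.43, 11.33 and 11.35 with shBAP1 #1 and 10.23, 9.37 and 9.32 with shBAP1 #2, against 11.35, 11.39 and 11.44 with shControl. The shBAP1 #1 arrays overlapped the controls and every shBAP1 #2 array lay more than 1 log2 unit below them. The change was -1.75 ± 0.19 with shBAP1 #2 (SE, limma adjusted p = 7.55e-05), and with shBAP1 #1 the 95% interval ran from -0.45 to 0.41. The spread in that interval is shared with shBAP1 #2, whose SD was 0.51, against 0.05 with shBAP1 #1 and 0.04 with shControl.

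The stalk recruits translation factors to the large subunit. MRPL10, its anchor, averaged 10.50 ± 0.10 with shBAP1 #1 and 9.74 ± 0.20 with shBAP1 #2, against 10.82 ± 0.04 with shControl (SD, n = 3 each). It fell by 1.08 with shBAP1 #2 (limma adjusted p = 2.54e-05) and by 0.31 with shBAP1 #1 (adjusted p = 0.0386). The second call was lost when any 1 control array or shBAP1 #1 replicate 1 or 2 was left out, and with the replicate number as a block (adjusted p = 0.0526). MRPL12, the stalk protein that also binds the mitochondrial RNA polymerase, averaged 9.77 ± 0.05 with shBAP1 #1 and 10.29 ± 0.11 with shBAP1 #2, against 10.14 ± 0.01 with shControl. It fell by 0.37 with shBAP1 #1 (limma adjusted p = 0.00286), while its change of 0.15 with shBAP1 #2 did not pass (adjusted p = 0.137). A dim second probe set, at 6.42, gave -0.16 with shBAP1 #1 and was not called.

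Among the other large subunit genes, MRPL19, a protein at the face between the subunits, fell by 1.36 with shBAP1 #2 (limma adjusted p = 0.000119). It had 9.68, 8.94 and 9.10 with shBAP1 #2, against 10.54, 10.48 and 10.77 with shControl, with no overlap. Its 3 probe sets changed by -1.36, -0.76 and 0.21 with shBAP1 #2, the last not called, and their mean change was -0.64. Between the shRNAs, its probe sets went in opposite directions: the kept set was lower with shBAP1 #2 than with shBAP1 #1, with a difference of -1.0, and the dimmest set, at 4.02, was higher by 0.37. With shBAP1 #1 the 3 arrays (10.23, 10.27 and 10.23) lay below the controls, but the change of -0.36 did not pass (adjusted p = 0.15). It passed without the shBAP1 #2 arrays (adjusted p = 0.0161), also with the replicate number as a block there (adjusted p = 0.0179), and in the mean over probe sets (-0.31, adjusted p = 0.0377). A second set, at 5.73, was called lower with shBAP1 #1 (-0.41, limma adjusted p = 0.012 over all probe sets).

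MRPL21 was called higher with both shRNAs, by 0.32 (limma adjusted p = 0.00903) and 0.28 (adjusted p = 0.0144). It had 10.59, 10.54 and 10.63 with shBAP1 #1 and 10.54, 10.57 and 10.53 with shBAP1 #2, against 10.19, 10.19 and 10.42 with shControl. The call with shBAP1 #2 was lost without shControl replicate 1 or 2. MRPL49 and MRPL55 rose with shBAP1 #2, by 0.52 (limma adjusted p = 0.000418) and 0.41 (adjusted p = 0.00241), and their changes with shBAP1 #1 had 95% intervals of -0.18 to 0.16 and -0.16 to 0.20. MRPL55 kept its rise in the brighter of its 2 probe sets but not in their mean, where the change was 0.14. MRPL2, a core protein near the peptidyl transferase centre, changed by 0.18 and 0.25 without passing the test. It was called higher with shBAP1 #2 once replicate 1 of that group was left out (0.38).

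MRPL52 was the member that moved in opposite directions. It had 10.36, 10.37 and 10.52 with shBAP1 #1 and 11.12, 11.03 and 11.04 with shBAP1 #2, against 10.66, 10.66 and 10.94 with shControl. The 3 groups did not overlap, with the controls in the middle. It fell by 0.34 with shBAP1 #1 (limma adjusted p = 0.0166) and was higher by 0.31 with shBAP1 #2 (adjusted p = 0.0214). The difference between the shRNAs was 0.64 ± 0.09 (SE, adjusted p = 0.000237). Each smaller change was lost when some single array was left out (shControl replicate 3 or shBAP1 #1 replicate 1 or 2 for the fall, shControl replicate 1 or 2 or shBAP1 #2 replicate 1 for the rise), and both were lost in the mean over its probe sets.

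**Figure D2:**
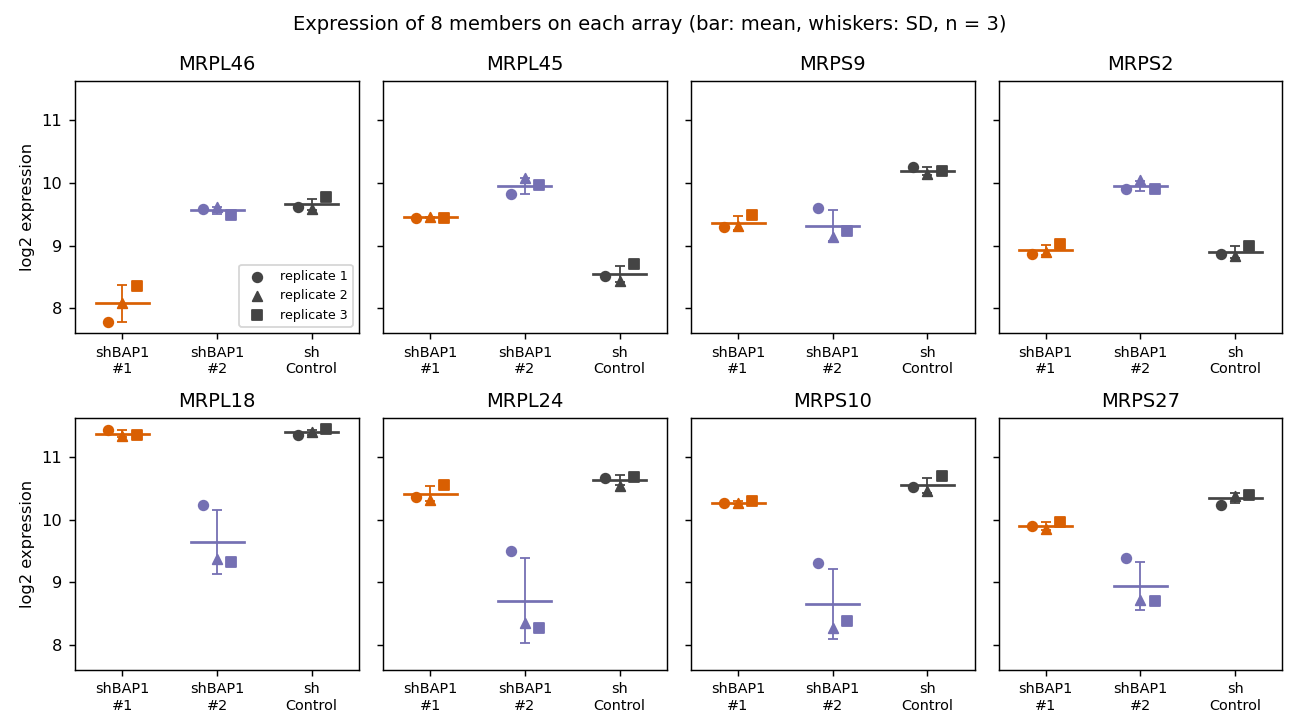
Log2 expression (vertical axis) of 8 genes on each array, by group from left to right shBAP1 #1, shBAP1 #2 and shControl; symbols are replicates, bars the mean and whiskers the SD of 3 arrays. MRPL46 is low with shBAP1 #1 alone, MRPS2 is high and MRPL18 is low with shBAP1 #2 alone, and in MRPL24, MRPS10 and MRPS27 shBAP1 #2 replicate 1 sits above the other 2 arrays of its group.

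In the small subunit, 2 genes rose and 2 fell with both shRNAs. MRPS9, a protein of the head, had 9.29, 9.31 and 9.49 with shBAP1 #1 and 9.60, 9.14 and 9.23 with shBAP1 #2, against 10.26, 10.14 and 10.19 with shControl. The 6 shBAP1 arrays lay below the 3 controls and overlapped each other. It fell by 0.83 (SE 0.11, limma adjusted p = 0.000368) and by 0.87 (SE 0.11, adjusted p = 0.000199), and the difference between the shRNAs had a 95% interval of -0.29 to 0.21. MRPS16, a body protein with a bacterial counterpart, had 11.30, 11.29 and 11.27 with shBAP1 #1 and 11.38, 11.38 and 11.34 with shBAP1 #2, against 11.65, 11.69 and 11.65 with shControl. These falls of 0.38 (limma adjusted p = 0.000623) and 0.30 (adjusted p = 0.00208) were large beside a replicate SD of 0.02. A second probe set, at 9.76, gave 0.21 and -0.08 and was called in neither comparison.

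MRPS12, the decoding centre protein whose bacterial counterpart is altered in streptomycin resistance, had 10.62, 10.73 and 10.64 with shBAP1 #1 and 11.05, 11.18 and 11.07 with shBAP1 #2, against 10.37, 10.32 and 10.51 with shControl. The groups did not overlap. It rose by 0.26 with shBAP1 #1 (limma adjusted p = 0.0219) and by 0.70 with shBAP1 #2 (adjusted p = 5.21e-05). The smaller rise was lost without shControl replicate 1 or 2 or shBAP1 #1 replicate 2, and the mean over 4 probe sets gave 0.14 and 0.40. MRPS35, a head protein with no bacterial counterpart, rose by nearly the same amount with both, 0.27 (limma adjusted p = 0.011) and 0.28 (adjusted p = 0.00647). It averaged 9.75 ± 0.06 with shBAP1 #1 and 9.76 ± 0.05 with shBAP1 #2, against 9.48 ± 0.06 with shControl (SD, n = 3 each).

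MRPS10, also in the head, was the small subunit gene that fell furthest. It had 9.31, 8.27 and 8.39 with shBAP1 #2, against 10.52, 10.45 and 10.69 with shControl, and its change was -1.90 ± 0.21 (SE, limma adjusted p = 8.87e-05). All 3 of its probe sets fell, with changes between -1.90 and -1.76. With shBAP1 #1 it had 10.26, 10.26 and 10.29, below every control array, but the change of -0.28 did not pass (adjusted p = 0.42). The estimate of spread in that test is shared with shBAP1 #2, whose SD was 0.56. Fitted without the shBAP1 #2 arrays, the same change passed (adjusted p = 0.0253), also with the replicate number as a block (adjusted p = 0.0241).

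MRPS27, a pentatricopeptide repeat protein, had 9.38, 8.72 and 8.71 with shBAP1 #2, against 10.24, 10.38 and 10.39 with shControl, a change of -1.40 ± 0.15 (SE, limma adjusted p = 6.78e-05). The mean with a second, dim probe set was -0.79. With shBAP1 #1 it had 9.89, 9.85 and 9.96, again below every control array. That change, -0.44, missed the threshold (adjusted p = 0.0591) and passed without the shBAP1 #2 arrays (adjusted p = 0.00223), also with the replicate number as a block (adjusted p = 0.0034). MRPS2, a protein between head and body, was the main rise in the small subunit. It had 9.91, 10.04 and 9.90 with shBAP1 #2, against 8.87, 8.83 and 9.0 with shControl, a change of 1.05 ± 0.08 (SE, adjusted p = 7.57e-06). With shBAP1 #1 its values of 8.87, 8.90 and 9.02 overlapped the controls, and the 95% interval was -0.13 to 0.20.

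The human genome has 3 genes related to the bacterial protein S18, and they did not move together. MRPS18B averaged 10.77 ± 0.15 with shBAP1 #1 and 11.23 ± 0.03 with shBAP1 #2, against 11.36 ± 0.05 with shControl (SD, n = 3 each). It fell by 0.59 with shBAP1 #1 (limma adjusted p = 0.000316), and its second probe set fell by 0.49. MRPS18C fell by 0.22 with shBAP1 #2 (adjusted p = 0.022), a call lost without shControl replicate 3 or shBAP1 #2 replicate 2 or 3, and its change with shBAP1 #1 was 0.10. MRPS18A, whose protein sits in the large subunit despite its symbol, had changes of -0.07 and -0.14 that did not pass.

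MRPS30, another large subunit protein by structure, had changes of -0.18 and -0.05 that did not pass. Its other probe sets, at 6.07 and 5.70, were called higher with shBAP1 #2, by 0.52 and 0.30, and the mean of its 3 sets gave 0.26 (limma adjusted p = 0.00857). MRPL58, a peptidyl-tRNA hydrolase that became a large subunit protein, fell by 0.36 with shBAP1 #2 (limma adjusted p = 0.0156), a call lost without shControl replicate 3 or shBAP1 #2 replicate 2 or 3. MRPL3, a core protein with a bacterial counterpart, had changes of -0.01 and 0.19 and MRPL51 of 0.04 and 0.07, none of which passed. MRPS15 rose by 0.24 with shBAP1 #2 (adjusted p = 0.0193), a call lost without shControl replicate 1 or 2 or shBAP1 #2 replicate 2 or 3. It was also lost in the mean over its probe sets (0.08, adjusted p = 0.561) and in its brightest set without a suffix (0.26, adjusted p = 0.084). The 45 members outside the rule for naming genes are given by their range. With shBAP1 #1, 0 of them rose and 7 fell, by between 0.21 and 0.34. With shBAP1 #2, 6 rose by 0.21 to 0.26 and 14 fell, with changes of -0.85 to -0.25.

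The direct comparison of shBAP1 #2 with shBAP1 #1 called more members than either comparison with shControl. In it 25 were higher and 23 lower (33.3% and 30.7%), where 17.1% of all genes were higher and 17.6% lower, and among the 6033 bright genes 31.1% were higher and 29.3% lower. At 1.5-fold it left 3 higher and 12 lower, against 6.75% and 8.16% of all genes, and 750 and 819 of the 6033 bright genes. MRPL46, MRPS2, MRPL52 and MRPL49 were the highest, at 1.48, 1.02, 0.64 and 0.53. MRPL18, MRPL24, MRPS10 and MRPL19 were the lowest, at -1.73, -1.70, -1.61 and -1.0. The members thus differed between the shRNAs about as often as other bright genes did.

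The subunits were compared by their medians. With shBAP1 #1, 2 of 48 large subunit genes rose and 13 fell (4.17% and 27.1%), and 2 of 27 small subunit genes rose and 4 fell (7.41% and 14.8%). Of all genes 13.0% were higher and 12.6% lower, and of the 6033 bright genes 22.9% and 23.7%. With shBAP1 #2, 8 of 48 rose and 17 fell in the large subunit (16.7% and 35.4%), and 7 of 27 rose and 10 fell in the small (25.9% and 37.0%). Of all genes 16.9% were higher and 16.5% lower with shBAP1 #2, and of the bright genes 29.8% and 28.5%. The median change was -0.06 for the large and -0.12 for the small subunit with shBAP1 #1, and -0.02 and -0.05 with shBAP1 #2. The difference of large minus small was 0.062 with shBAP1 #1 and 0.037 with shBAP1 #2, with no test of either. On single arrays, relative to the control mean of each gene, it was 0.064, 0.049 and 0.036 with shBAP1 #1 and -0.004, 0.044 and 0.109 with shBAP1 #2, against 0, -0.003 and 0.003 with shControl. Each gene was centred on the mean of those same control arrays, which holds the control values near 0. The place of the shBAP1 arrays beside them therefore cannot show a difference between the subunits. With shBAP1 #2 the difference turned to -0.021 when means replaced medians and to -0.002 without shControl replicate 3. Without shBAP1 #2 replicate 1 it was 0.097, and with shBAP1 #1 averaging every probe set of a gene left 0.004. Of the 47 members with a bacterial counterpart, 2 rose and 12 fell with shBAP1 #1 (4.26% and 25.5%). With shBAP1 #2, 10 of them rose and 15 fell (21.3% and 31.9%). Of the 28 without one, 2 rose and 5 fell with shBAP1 #1 (7.14% and 17.9%), and 5 rose and 12 fell with shBAP1 #2 (17.9% and 42.9%). These counts are to be read beside the shares of all genes and of bright genes given above.

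**Figure D3:**
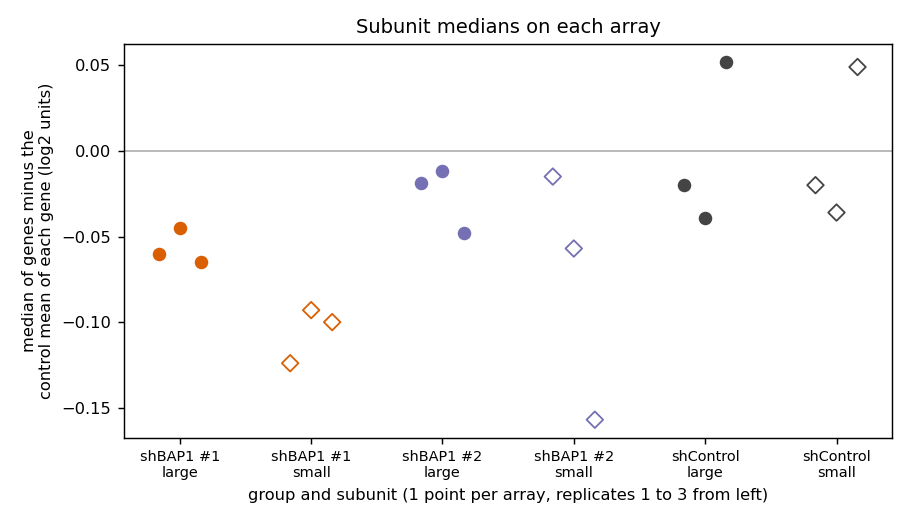
Median over the large subunit genes (filled circles) and small subunit genes (open diamonds) of each gene's log2 value minus its control mean, 1 point per array, grouped from left to right as shBAP1 #1, shBAP1 #2 and shControl. All medians lie within 0.16 of 0, and the 3 control arrays, on whose mean each gene was centred, span -0.039 to 0.052.

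The members lay on 21 chromosomes, with at most 8 on any 1. Many start close to a gene on the opposite strand. Where such genes lie head to head, both transcripts run outward from a short shared stretch. Promoter windows were found for 67 of the 75. Of these, 25 had a gene on the opposite strand with a listed start within 500 bases, and 17 such pairs had both genes measured. The search did not check whether the transcripts ran outward or overlapped. With shBAP1 #1, 1 pair had both genes called and they went in opposite directions, 3 had a mitochondrial ribosomal protein gene called alone and 4 a partner of another kind alone. With shBAP1 #2, 4 pairs went the same way, 2 in opposite directions, 5 had a mitochondrial ribosomal protein gene called alone and 2 a partner of another kind alone. Over all genes, 25.6% were called with shBAP1 #1 and 33.4% with shBAP1 #2, and among the 6033 bright genes 46.6% and 58.2%. The pairs were not compared with pairs of unrelated genes, so these counts show no link between partners.

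MRPL46 and MRPS11 are such a pair, both mitochondrial ribosomal protein genes, with starts 320 bases apart. MRPS11, a small subunit platform protein, had 10.74, 10.69 and 10.71 with shBAP1 #1, against 10.57, 10.53 and 10.73 with shControl. Its change of 0.10 did not pass (limma adjusted p = 0.442), while MRPL46 fell by 1.58 on the same arrays. With shBAP1 #2, MRPS11 had 10.41, 10.31 and 10.17 and fell by 0.31 (adjusted p = 0.0118), while MRPL46 did not pass. The 2 promoter windows, from RefSeq on GRCh38.p14, are shown because they overlap and yet the genes did not move together. Each runs from 250 bases before to 50 bases after the start. MRPL46 lies on the minus strand (chr15:88467339-88467638) and MRPS11 on the plus strand (chr15:88467458-88467757). Capitals mark the YY1 core ATGGCG, found in the first and not in the second.
MRPL46: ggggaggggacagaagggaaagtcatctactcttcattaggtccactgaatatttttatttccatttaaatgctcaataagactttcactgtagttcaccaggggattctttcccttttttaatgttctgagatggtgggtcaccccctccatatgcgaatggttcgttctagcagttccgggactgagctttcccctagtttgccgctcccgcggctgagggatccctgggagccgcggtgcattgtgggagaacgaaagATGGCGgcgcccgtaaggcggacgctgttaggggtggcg
MRPS11: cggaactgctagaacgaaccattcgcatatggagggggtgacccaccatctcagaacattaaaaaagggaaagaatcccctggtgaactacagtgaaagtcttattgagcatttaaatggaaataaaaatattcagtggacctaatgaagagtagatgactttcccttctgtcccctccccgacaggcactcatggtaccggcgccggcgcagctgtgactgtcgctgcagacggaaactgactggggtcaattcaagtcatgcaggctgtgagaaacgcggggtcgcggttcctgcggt

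MRPS12 starts opposite SARS2, the mitochondrial seryl-tRNA synthetase gene, with starts 181 bases apart, and this pair moved in opposite directions with both shRNAs. SARS2 had 7.01, 6.82 and 7.01 with shBAP1 #1 and 6.89, 6.75 and 6.59 with shBAP1 #2, against 7.39, 7.56 and 7.37 with shControl. All 6 shBAP1 arrays lay below the controls for SARS2 and above them for MRPS12. SARS2 fell by 0.50 (limma adjusted p = 0.00281) and 0.70 (adjusted p = 0.000241). MRPL27 and EME1, a DNA repair endonuclease subunit gene, also parted with shBAP1 #2, with MRPL27 higher by 0.24 (adjusted p = 0.0106) and EME1 lower by 0.83 (adjusted p = 0.000111).

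The pairs that fell together with shBAP1 #2 were MRPL50 with ZNF189, MRPL57 with SKA3, MRPS18C with HELQ and MRPS27 with PTCD2. The MRPL50 call was narrow (-0.25, limma adjusted p = 0.0401) and was lost without shBAP1 #2 replicate 1. That of MRPS18C was lost without shControl replicate 3 or shBAP1 #2 replicate 2 or 3. MRPS2 rose by 1.05 with shBAP1 #2, and PIERCE1, which starts 96 bases away, had a change of -0.22 that did not pass (limma adjusted p = 0.285). These pairs were named after their values were seen.

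**Figure D4:**
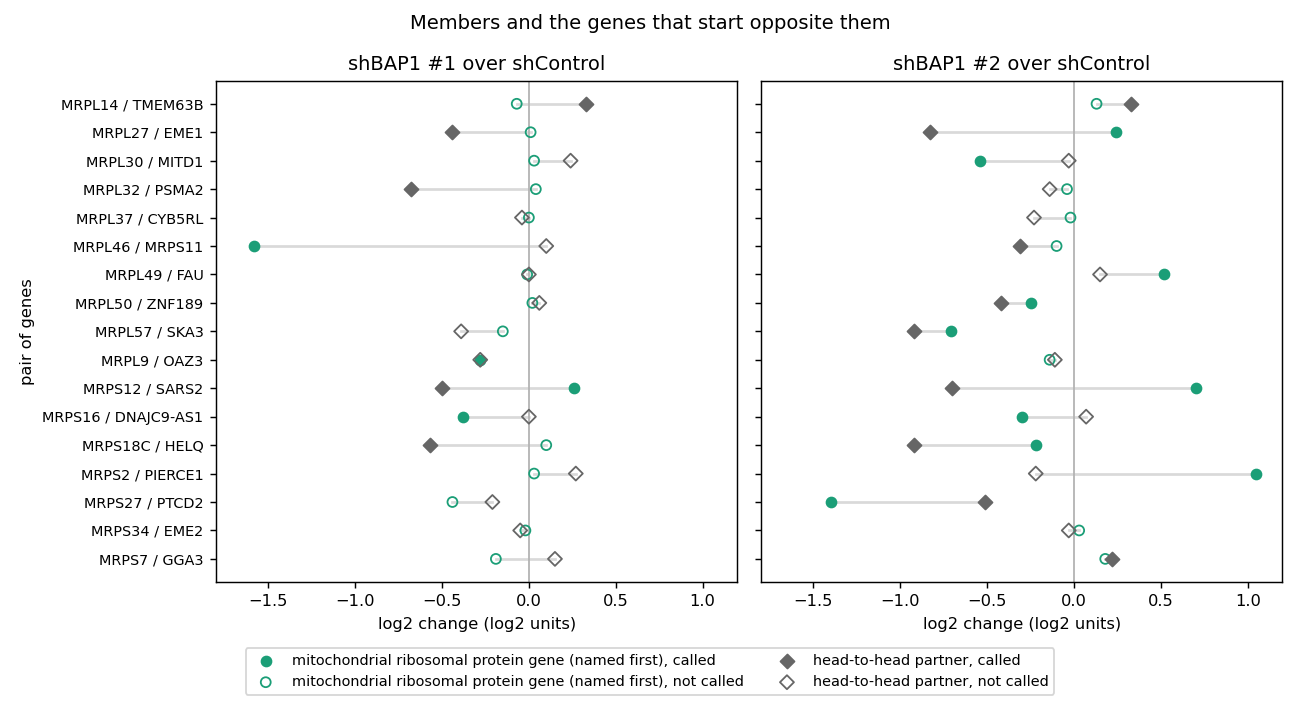
Log2 change of the mitochondrial ribosomal protein gene (circles) and of the gene that starts within 500 bases on the opposite strand (diamonds) in 17 pairs, with shBAP1 #1 (left) and shBAP1 #2 (right) over shControl. Filled symbols passed an adjusted p of 0.05. MRPS11, drawn as the partner of MRPL46, is also a mitochondrial ribosomal protein gene. The members of the MRPS12 and SARS2 pair lie on opposite sides of 0 in both panels.

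Promoter windows were found for 67 of the 75 genes and searched on both strands for 3 motifs. The ETS and GABP motif CCGGAAG was in 43.3% of the members, against 12.2% of all 27305 genes with a window and 26.5% of the 5084 measured genes at least as bright as the dimmest member. The YY1 core ATGGCG was in 47.8%, against 12.7% and 25.8%. The NRF1 motif, GCGC and TGCGC around any 1 base, was in 13.4%, against 6.98% and 15.5%. The ETS and GABP and YY1 motifs were thus found more often in these promoters than in those of other bright genes, and the NRF1 motif was not, without a test. The letters of the YY1 core can also be read as a start codon followed by GCG.

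The shares by response are given without a test. The ETS and GABP motif was in 48% of the 25 matched genes that fell with shBAP1 #2, in 43.3% of the 30 not called and in 33.3% of the 12 that rose. The YY1 core was in 40%, 46.7% and 66.7% of the same genes, and the NRF1 motif in 20%, 10% and 8.33%. With shBAP1 #1, the ETS and GABP motif was in 30.8% of the 13 genes that fell and 47.1% of the 51 not called, the YY1 core in 53.8% and 45.1%, and the NRF1 motif in 15.4% and 11.8%. Of the 3 that rose with shBAP1 #1, 1 held the ETS and GABP motif, 2 the YY1 core and 1 the NRF1 motif. A match is a description of the letters and not a bound site. The windows of MRPL45, which rose most with both shRNAs, of MRPS10, which fell most in the small subunit, and of MRPS12 (its first listed start) are shown with all 3 motifs in capitals. MRPL45 (chr17:38296918-38297217, plus strand) holds the NRF1 motif, on the opposite strand. MRPS10 (chr6:42217812-42218111, minus strand) and MRPS12 (chr19:38930694-38930993, plus strand) each hold the ETS and GABP motif and the YY1 core. The YY1 core of MRPS12 is on the opposite strand.
MRPL45: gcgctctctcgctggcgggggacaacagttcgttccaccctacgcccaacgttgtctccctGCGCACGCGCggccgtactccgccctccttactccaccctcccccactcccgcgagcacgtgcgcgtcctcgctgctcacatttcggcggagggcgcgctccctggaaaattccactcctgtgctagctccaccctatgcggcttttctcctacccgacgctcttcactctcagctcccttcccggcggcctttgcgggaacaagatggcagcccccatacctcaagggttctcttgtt
MRPS10: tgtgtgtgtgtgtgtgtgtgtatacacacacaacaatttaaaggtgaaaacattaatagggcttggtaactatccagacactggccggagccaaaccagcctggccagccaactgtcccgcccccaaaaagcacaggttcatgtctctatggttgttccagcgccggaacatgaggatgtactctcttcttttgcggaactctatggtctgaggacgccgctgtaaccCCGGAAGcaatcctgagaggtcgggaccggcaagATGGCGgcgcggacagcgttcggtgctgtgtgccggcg
MRPS12: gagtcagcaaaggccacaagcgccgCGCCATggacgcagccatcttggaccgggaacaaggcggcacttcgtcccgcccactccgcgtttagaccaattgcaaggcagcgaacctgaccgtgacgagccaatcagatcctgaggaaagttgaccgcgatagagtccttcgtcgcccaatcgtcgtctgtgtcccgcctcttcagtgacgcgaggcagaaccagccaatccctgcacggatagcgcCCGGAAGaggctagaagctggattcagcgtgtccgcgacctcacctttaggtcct

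Other genes of mitochondrial translation were read from lists. Of 89 measured, 32 were called with shBAP1 #1 and 38 with shBAP1 #2, while 25.6% and 33.4% of all genes were called in those comparisons. Among the 6033 bright genes 46.6% and 58.2% were called, though some listed genes are dimmer than those. By direction, 13.0% of all genes were higher and 12.6% lower with shBAP1 #1, and 16.9% and 16.5% with shBAP1 #2. The counts of each list below are to be read beside these shares. Among 4 mitochondrial ribosomal proteins with other symbols, 1 rose and 0 fell with shBAP1 #1, and 0 rose and 2 fell with shBAP1 #2. The 2 were CHCHD1, a small subunit protein (-0.36, limma adjusted p = 0.00461), and GADD45GIP1, a large subunit protein (-0.44, adjusted p = 0.0248, lost without shControl replicate 1 or 3 or shBAP1 #2 replicate 2 or 3). Among 16 translation factors, 1 rose and 5 fell with shBAP1 #1, and 3 rose and 4 fell with shBAP1 #2. GUF1, a mitochondrial elongation factor of the LepA family, fell with both. It averaged 8.14 ± 0.14 with shBAP1 #1 and 7.71 ± 0.18 with shBAP1 #2, against 8.70 ± 0.13 with shControl (SD, n = 3 each).

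Among 25 assembly and ribosomal RNA modification genes, 3 rose and 7 fell with shBAP1 #1, and 4 rose and 5 fell with shBAP1 #2. RPUSD4, a pseudouridine synthase of the mitochondrial large ribosomal RNA, fell by 0.74 (limma adjusted p = 0.000446) and 1.26 (adjusted p = 1.73e-05). MTERF3, needed for large subunit assembly, fell by 0.84 and 0.40, the second lost without shControl replicate 1 or 3 or shBAP1 #2 replicate 2 or 3. MTG1, an assembly GTPase, fell by 0.36 and 0.64. MALSU1, which binds the large subunit before it joins the small one, rose by 0.39 and 0.41 (adjusted p = 0.00399 and 0.00204).

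Among 18 genes that charge mitochondrial tRNAs, 3 rose and 5 fell with shBAP1 #1, and 3 rose and 4 fell with shBAP1 #2. SARS2, WARS2 and QRSL1, which takes part in making glutaminyl-tRNA, fell with both shRNAs. FARS2, for phenylalanine, rose by 0.56 and 0.35, the second lost in the mean over its probe sets (0.15). The WARS2 change of -0.22 with shBAP1 #2 was lost without shControl replicate 2 or 3 or shBAP1 #2 replicate 1 or 3, in the mean over its probe sets (-0.16) and in its brightest set without a suffix (-0.13). The QRSL1 changes of -0.77 and -0.37 were 0.12 and 0.03 in its brightest probe set without a suffix, and the second was also lost when any 1 control array or shBAP1 #2 replicate 2 or 3 was left out.

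Among 16 genes of mitochondrial DNA upkeep and transcription, 3 rose and 1 fell with shBAP1 #1, and 6 rose and 2 fell with shBAP1 #2. HSD17B10, a subunit of mitochondrial RNase P, rose by 0.39 (limma adjusted p = 0.00619) and 0.88 (adjusted p = 3.65e-05), and the RNA helicase SUPV3L1 rose by 0.36 and 0.47. TFAM, which packages mitochondrial DNA and starts its transcription, was picked after its values were seen. It had 9.09, 9.46 and 9.55 with shBAP1 #1 and 10.55, 10.55 and 10.72 with shBAP1 #2, against 10.60, 10.64 and 10.76 with shControl. It fell by 1.30 with shBAP1 #1 (adjusted p = 2.85e-05) and changed by -0.06 with shBAP1 #2 (adjusted p = 0.76).

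Among 10 regulators of nuclear genes for mitochondria, 0 rose and 3 fell with shBAP1 #1, and 1 rose and 4 fell with shBAP1 #2. GABPA, the DNA-binding subunit of the factor that reads the ETS and GABP motif, averaged 8.24 ± 0.09 with shBAP1 #1 and 7.93 ± 0.11 with shBAP1 #2, against 8.54 ± 0.11 with shControl (SD, n = 3 each). It fell by 0.30 (limma adjusted p = 0.0277) and 0.61 (adjusted p = 0.00034). NRF1, a regulator of nuclear genes for respiration, averaged 6.41 ± 0.07 and 6.37 ± 0.04 with the shRNAs, against 6.69 ± 0.13 with shControl, and fell by 0.28 (adjusted p = 0.0222) and 0.32 (adjusted p = 0.00819). The calls of both genes with shBAP1 #1 were lost without shControl replicate 1 or 3 or shBAP1 #1 replicate 1, that of GABPA also without shBAP1 #1 replicate 3 and that of NRF1 also without shBAP1 #1 replicate 2. In the mean over probe sets these changes were -0.16 for GABPA and -0.17 for NRF1, and neither passed. The NRF1 change with shBAP1 #2 was -0.25 in its brightest probe set without a suffix and did not pass there. YY1 itself averaged 11.46 ± 0.06 with shBAP1 #1 and 11.56 ± 0.07 with shBAP1 #2, against 11.68 ± 0.07 with shControl. It fell by 0.22 with shBAP1 #1 (adjusted p = 0.0333), and its change of -0.13 with shBAP1 #2 did not pass (adjusted p = 0.188).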

How the data were processed

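The deposited table holds log2 expression values per probe set, which the authors made with RMA (robust multi-array averaging). The submitters' processing notes name the tool without a version. RMA gives each array the same distribution of values, which would hide a change common to all transcripts. Of 54675 probe sets, 41097 carried 1 gene symbol in the platform annotation, 1801 carried several and 11777 were not listed. For each gene the brightest single-symbol probe set, averaged across arrays, stood for it, which left 19775 genes. The 75 members were read by 140 probe sets, 37 by more than 1, and 46 of the kept sets had a suffix that marks shared probes. All 75 symbols matched the RefSeq gene table for GRCh38.p14.

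All 9 arrays entered 1 linear model of 3 groups in limma 3.58.1 (R 4.3.3, lmFit, eBayes), which had 6 residual degrees of freedom and 4.33 prior ones. Tests were two-sided, and a gene was called higher or lower when its p, adjusted by Benjamini-Hochberg across the 19775 genes, was under 0.05. The number of arrays limits the precision. The fit was tested on simulated data. The members, lists and tests were chosen with earlier results of these data known. Named members were those called by both shRNAs, the 6 highest and 6 lowest called with each shRNA, the 4 highest and 4 lowest called between them, the 3 brightest and 3 dimmest, genes of uncertain subunit placement, and those whose probe sets were called in opposite directions. From each companion list, up to 4 genes called the same way by both shRNAs were named, otherwise the 2 with the smallest p. Same-numbered arrays of shBAP1 #1 and shControl deviated together (correlations of 0.113, 0.203 and 0.216 over genes), while differently numbered ones gave -0.22 to 0.039. However, shBAP1 #1 replicate 2 and shBAP1 #2 replicate 3, which differ in number, reached 0.236. The labels state no pairing, so whether the arrays were paired is not settled. The main model had no block, and fits with the replicate number as a block are given as alternatives. Alternatives changed the probe set rule, the scaling, the filter, the moderation, the samples fitted and the block. Figures were drawn with matplotlib 3.10.9.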

Additional observations from a re-analysis of the deposited data

Results flagged for a closer look

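MRPL52 was flagged by a rule: it was called in opposite directions by the shRNAs and their difference was called too. It fell with shBAP1 #1 and rose with shBAP1 #2 relative to the same controls. The p of the difference was part of the rule, so it adds no support. This was 1 of 75 members, while 3.44% of all genes were called in opposite directions. Between the shRNAs 25 members were higher and 23 lower, so a difference between them was common. The change with shBAP1 #2 exceeded that with shBAP1 #1 by 0.64 on the log2 scale (limma, adjusted p = 0.000237), and all 3 shBAP1 #2 arrays lay above all 3 shBAP1 #1 arrays. Under the alternatives tried, this difference ranged between 0.31 and 0.70 and passed the threshold in each. The opposite calls did not: in the mean over probe sets neither change passed (limma adjusted p = 0.0589 with shBAP1 #1 and 0.18 with shBAP1 #2).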

How the results depend on the processing

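With the replicate number as a block over all 9 arrays, 19, 40 and 46 members were called with shBAP1 #1, with shBAP1 #2 and between the shRNAs, and 9 the same way by both. MRPL10 with shBAP1 #1 was the named member that lost its call there. A block in the 6 arrays of shBAP1 #1 and shControl, an alternative chosen after seeing the data, called 26 with shBAP1 #1. A minimum of 1.5-fold left 4, 15, 15 and 2. By that rule 4.39% of all genes were higher and 4.85% lower with shBAP1 #1. The shares were 5.61% and 7.93% with shBAP1 #2, and 6.75% and 8.16% between the shRNAs. Leaving out 1 array at a time gave 15 to 29, 33 to 43, 43 to 48, and 4 to 14 the same way by both, and 23 to 37, 32 to 41 and 43 to 55 companion genes. The 29, 43 and 14 came without shBAP1 #2 replicate 1. That fit called 28.2%, 34.8% and 35.8% of all genes in the 3 comparisons, against 25.6%, 33.4% and 34.7% with every array. The block fits and the other fits with 1 array left out are given without that share. Their counts therefore cannot be told apart from a change in how many genes are called. With 1 array left out at a time, the difference of large minus small subunit medians ranged from 0.040 to 0.081 with shBAP1 #1. It ranged from -0.002 to 0.097 with shBAP1 #2 and from -0.088 to -0.011 between the shRNAs. It was 0.004 with shBAP1 #1 and -0.001 between the shRNAs when all probe sets of a gene were averaged, and -0.021 with shBAP1 #2 when means replaced medians. In the brightest probe set without a suffix, MRPL39 (0.01) and MRPS16 (0.21) turned sign with shBAP1 #1, MRPL23 (0.09) between the shRNAs, and QRSL1 in all 3 comparisons (0.12, 0.03 and -0.10). That alternative reads another, mostly dimmer probe set. The cause of the other changes was not tested. Of the named members called, 6 of 14 with shBAP1 #1, 13 of 22 with shBAP1 #2 and 15 of 20 between the shRNAs kept their call under every alternative tried, while 5 of 16, 4 of 8 and 2 of 10 not called gained one in some alternative. Dim signal limits the second probe sets, several of which lay near the median probe set of 5.44.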

Other observations

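The probe sets of some genes read differently with shBAP1 #1, and 2 large subunit genes are given as examples. Another is MRPL44, whose kept set fell by 0.27 while its second set changed by 0.14 and was not called. For MRPL30 the kept probe set, at a mean of 10.23, changed by 0.03, while a second set at 9.99 rose by 0.42 (limma, adjusted p = 0.00599 over all probe sets). Its dimmer sets, at 8.20, 7.10 and 6.16, changed by 0.43, 0.02 and 0.33 with shBAP1 #1, none called. With shBAP1 #2 they changed by -0.58 (called), -0.22 and 0.10. For MRPL42 the kept set, at 10.76, changed by 0.06, while a set at 8.80 rose by 0.42 (adjusted p = 0.00617 over all probe sets). With shBAP1 #2 both kept sets fell by 0.54, and the second sets changed by -0.30 (called, adjusted p = 0.0268) and -0.19 (not called, adjusted p = 0.148).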
